A study of Mus musculus with 5 samples.

Results

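Endothelial cells line every capillary, artery and vein of skeletal muscle. The data described here are the RNA levels of 10 genes that mark these cells, Pecam1, Cdh5, Emcn, Esam, Cldn5, Eng, Vwf, Egfl7, Plvap and Sox17, in tibialis anterior (TA) muscle of WT control mice and of mice labelled as lacking Nrip1 in skeletal muscle. The genes were chosen by name as known markers, with earlier results of these data known. All 10 are among the 17015 genes of the deposited table. Nrip1 encodes RIP140, a nuclear receptor coregulator. TA is a fast-twitch muscle of the lower leg.

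RNA was sequenced from whole TA of sedentary male mice at 8 weeks of age, in 3 libraries from WT control mice and 2 libraries labelled skmNrip1-/-. The skmNrip1-/- mice carry floxed Nrip1 alleles, made in C57BL/6J, and a Cre recombinase under the myogenin promoter from C57BL/6JN mice. This promoter is active in skeletal muscle cells and not in endothelium, and the controls were littermates without Cre. The labels do not say which mice shared a litter or whether the libraries were prepared together. Library values are listed below in the order of their replicate numbers. They are FPKM, fragments per kilobase of transcript, as the authors scaled them, so levels can be compared between genes within a library. Their sums differed between libraries, from 969144 to 1288038, and comparisons between libraries rest on that scaling, with others given below. The table gives no fragment totals, and depth is therefore unknown.

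Each library is a mixture of all the cells in the muscle, of which endothelium is a minor part by RNA. The FPKM of an endothelial marker rises with the share of endothelial RNA in the mixture, and a bulk library cannot tell fewer cells from less RNA per cell. Trained muscle gains capillaries, and the question put to these genes was whether their levels, as a read of capillary content, differed between the genotypes. The targeted gene checks the labels. Nrip1 was 4.64, 7.69 and 6.55 FPKM in WT control TA, against 25.3 and 22.5 FPKM in the libraries labelled skmNrip1-/-. It was higher, not lower, in the libraries labelled as knockout (log2 fold change 1.94, adjusted p = 0.0261 from limma). The paper places the start and stop codons in the deleted exon, and measured Nrip1 RNA and RIP140 protein in gastrocnemius of this mouse line. Since the table used here holds 1 value per gene, the deleted exon cannot be seen apart from the rest. The directions given for the libraries labelled skmNrip1-/- therefore rest on the labels.

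The markers fall into roles at the cell surface, outside the cell and in the nucleus. At the junctions between endothelial cells sit PECAM-1 (Pecam1, the CD31 antigen stained to count capillaries), VE-cadherin (Cdh5), the adhesion molecule ESAM (Esam) and the tight junction protein claudin-5 (Cldn5). Endomucin (Emcn) is a sialoglycoprotein of the capillary and venous surface, and endoglin (Eng) is a coreceptor for ligands of the TGF-β family. Plvap forms the diaphragms of fenestrae and caveolae. Von Willebrand factor (Vwf) and EGFL7 (Egfl7) are secreted, and SOX17 (Sox17) is a transcription factor with a role in arterial identity. Many endothelial promoters are bound by ETS family factors, whose core site reads GGAA.

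None of the 10 marker genes was called different between the genotypes. Of them, 9 had a log2 fold change below 0 and 1, Plvap, was slightly above 0, and the median was -0.22 against -0.00054 over all genes tested. The median was -0.11 without replicate 1 labelled skmNrip1-/- and -0.14 without WT control replicate 1. The lowest estimates belonged to Cldn5, Vwf and Egfl7, and the estimates closest to 0 to Plvap and Pecam1. The levels of the capillary stain's own gene, Pecam1, were 25.1, 26.6 and 24.9 FPKM in WT control TA, against 23.9 and 26.0 FPKM in TA labelled skmNrip1-/-.

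All 10 genes were detected in every library at no less than 4.48 FPKM, so endothelial RNA was present throughout. Egfl7 had the highest mean over the 5 libraries, 40.3 FPKM, above 87.3% of the genes tested, and Vwf the lowest, 5.53 FPKM, above 48.4%. Between them the means were 25.3 FPKM for Pecam1, 24.0 for Cdh5, 20.3 for Esam, 11.6 for Eng, 10.2 for Sox17, 8.89 for Plvap, 6.41 for Cldn5 and 6.11 for Emcn. Egfl7 lay above Pecam1, and Esam above Eng, with ranges that did not overlap. The ranges of the other neighbours in this order overlapped, although Pecam1 was above Cdh5, Cdh5 above Esam and Plvap above Cldn5 in all 5 libraries. The order of Cldn5, Emcn and Vwf cannot be told from these libraries, as Cldn5 was above Emcn in 3 of 5 and Emcn above Vwf in 4 of 5.

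**Figure D1:**
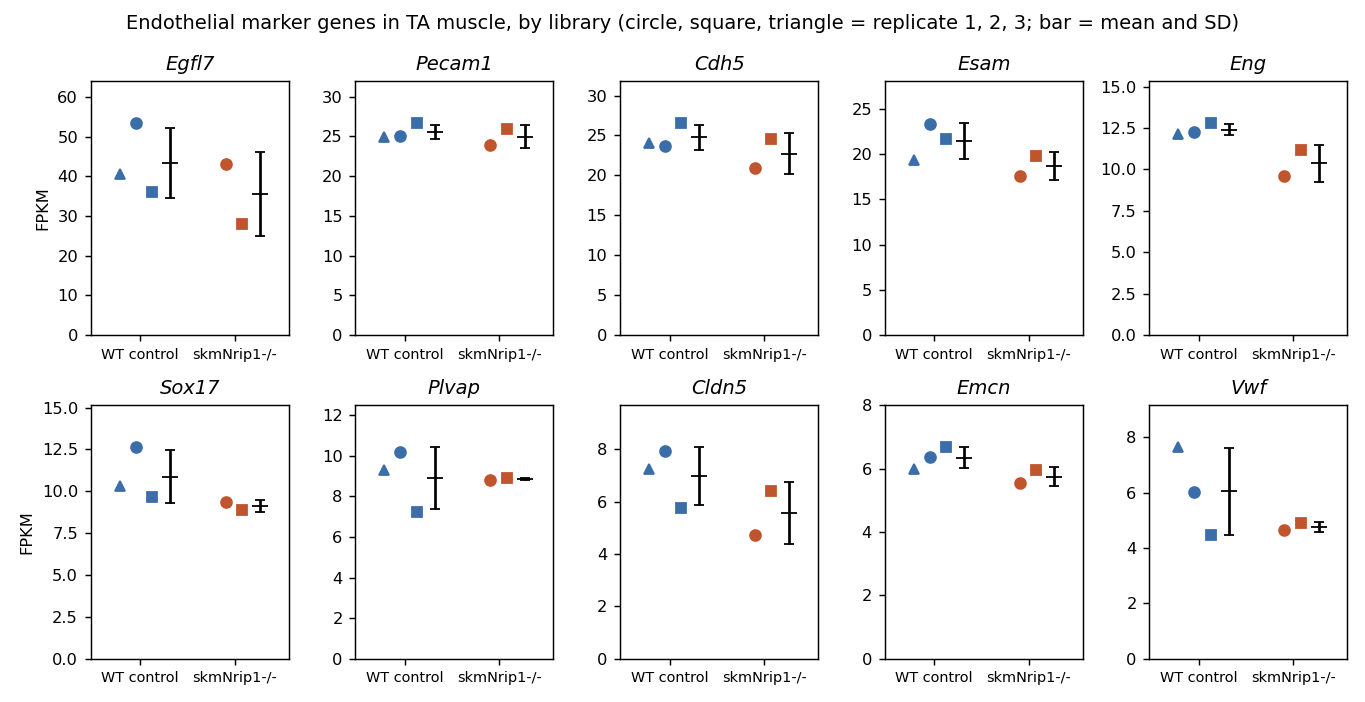
FPKM (vertical axes, from 0) of the 10 endothelial marker genes in each WT control library (blue) and each library labelled skmNrip1-/- (red), with the mean and SD of each group as a black bar beside the points. The red points lie below all blue points for Eng, Sox17 and Emcn, and the groups overlap for the other 7 genes.

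Groups were compared with limma on log2(FPKM + 0.1), over the 12148 genes whose mean reached 0.5 FPKM. Calls needed an adjusted p no higher than 0.05 and a fold change of 1.2 or more. By this rule 0.453% of all genes tested were called, 0.37% higher and 0.0823% lower in the libraries labelled skmNrip1-/-. A count of 0 among 10 genes is close to that background. At an unadjusted p of 0.05 or less, none of the 10 was higher or lower, against 6.57% and 5.33% of all genes. For 3 of the 10, both libraries labelled skmNrip1-/- were below every WT control library, against 14.4% of all genes tested. For the other 7 the groups overlapped, and none had both libraries above, a pattern of 15.8% of all genes. The 9 genes below 0 stand against 50.1% of all genes. The 10 genes report on the same cells in the same 5 libraries, so they are not 10 separate observations of a genotype effect.

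Among the junction genes, Pecam1 (ENSMUSG00000020717, chromosome 11, 106654217 to 106750628, minus strand, GRCm38) had the library values given above, with a WT control mean of 25.6 ± 0.939 FPKM (SD, n = 3). Both other libraries lay around that mean, and the groups overlapped. In limma it had a log2 difference of -0.03 ± 0.10 (SE) and an adjusted p of 0.929, with a 95% interval from -0.28 to 0.21 on the log2 scale. Of the 10 genes, Pecam1 also varied least over the 5 libraries, by a factor of 1.11 between its lowest and highest value.

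VE-cadherin is the adhesion molecule of the endothelial adherens junction. Cdh5 (ENSMUSG00000031871, chromosome 8, 104101625 to 104144511) was 23.7, 26.5 and 24.1 FPKM in WT control TA, against 20.9 and 24.6 FPKM in TA labelled skmNrip1-/-. Only replicate 1 of the latter was below the WT control range. In limma it had a log2 difference of -0.13 ± 0.12 (SE) and an adjusted p of 0.75, with an interval from 0.753 to 1.11 in fold change. Esam (ENSMUSG00000001946, chromosome 9, 37528078 to 37538319), also expressed by platelets, was 23.3, 21.6 and 19.3 FPKM in WT control TA, against 17.6 and 19.7 FPKM in TA labelled skmNrip1-/-. The groups overlapped through WT control replicate 3, and limma gave a log2 difference of -0.20 ± 0.12 (SE) and an adjusted p of 0.604.

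Cldn5 (ENSMUSG00000041378, chromosome 16, 18776847 to 18778262), the main claudin of endothelial tight junctions, had the lowest log2 fold change of the 10, -0.32. Its levels were 7.93, 5.75 and 7.23 FPKM in WT control TA, against 4.72 and 6.41 FPKM in TA labelled skmNrip1-/-. WT control replicate 2 lay between the libraries labelled skmNrip1-/-. Its standard error was 0.19 and its interval -0.78 to 0.14, so the estimate was not distinguishable from 0 (limma, adjusted p = 0.585).

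Of the surface glycoproteins, Eng (ENSMUSG00000026814, chromosome 2, 32646595 to 32682669) had the lowest p of the 10. It was 12.3, 12.8 and 12.1 FPKM in WT control TA, with an SD of 0.338 FPKM, and 9.58 and 11.2 FPKM in the libraries labelled skmNrip1-/-. The groups did not overlap. Its log2 difference was -0.26 ± 0.11 (SE), and its p from limma was 0.0597 before and 0.451 after adjustment. Emcn (ENSMUSG00000054690, chromosome 3, 137341067 to 137432185) was 6.36, 6.68 and 6.002 FPKM in WT control TA, against 5.54 and 5.96 FPKM in TA labelled skmNrip1-/-. The groups did not overlap, although the nearest libraries were almost level, and limma gave a log2 difference of -0.14 ± 0.11 (SE) and an adjusted p of 0.707.

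Plvap (ENSMUSG00000034845, chromosome 8, 71497765 to 71511752, minus strand) was 10.2, 7.23 and 9.28 FPKM in WT control replicates 1, 2 and 3. In the libraries labelled skmNrip1-/- it was 8.81 and 8.90 FPKM, both within the WT control range. In limma it had a log2 difference of 0.01 ± 0.16 (SE) and an adjusted p of 0.994, with an interval in fold change from 0.767 to 1.32.

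The secreted products varied most within WT control TA. Vwf (ENSMUSG00000001930, chromosome 6, 125546774 to 125686679), a clotting glycoprotein that platelet precursors also make, was 6.01, 4.48 and 7.64 FPKM in WT control replicates 1, 2 and 3, a coefficient of variation of 26.2%. It was 4.64 and 4.89 FPKM in the libraries labelled skmNrip1-/-, inside the WT control range, and limma gave a log2 difference of -0.30 ± 0.22 (SE) and an adjusted p of 0.66. Egfl7 (ENSMUSG00000026921, chromosome 2, 26580014 to 26593120), an angiogenic factor whose gene hosts miR-126, was 53.4, 36.2 and 40.7 FPKM in WT control TA, against 43.1 and 28.1 FPKM in TA labelled skmNrip1-/-. Replicate 1 of the latter lay within the WT control range and replicate 2 below it. In limma it had a log2 difference of -0.30 ± 0.23 (SE) and an adjusted p of 0.688, with the widest interval of the 10, from 0.555 to 1.19 in fold change. The annotation lists 19 Egfl7 transcripts, and 459 of its 3581 exonic bases are shared with overlapping genes on either strand.

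Sox17 (ENSMUSG00000025902, chromosome 1, 4490931 to 4497354, minus strand) was 12.6, 9.65 and 10.3 FPKM in WT control TA, against 9.38 and 8.86 FPKM in TA labelled skmNrip1-/-. The groups did not overlap, and the gap between them was smaller than the spread within WT control TA (SD 1.57). In limma it had a log2 difference of -0.24 ± 0.14 (SE) and an adjusted p of 0.584. Of the 4772 exonic bases of Sox17, 804 lie under a gene annotated on the opposite strand, and whether the quantification used strand is not stated in the sources used here.

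**Figure D2:**
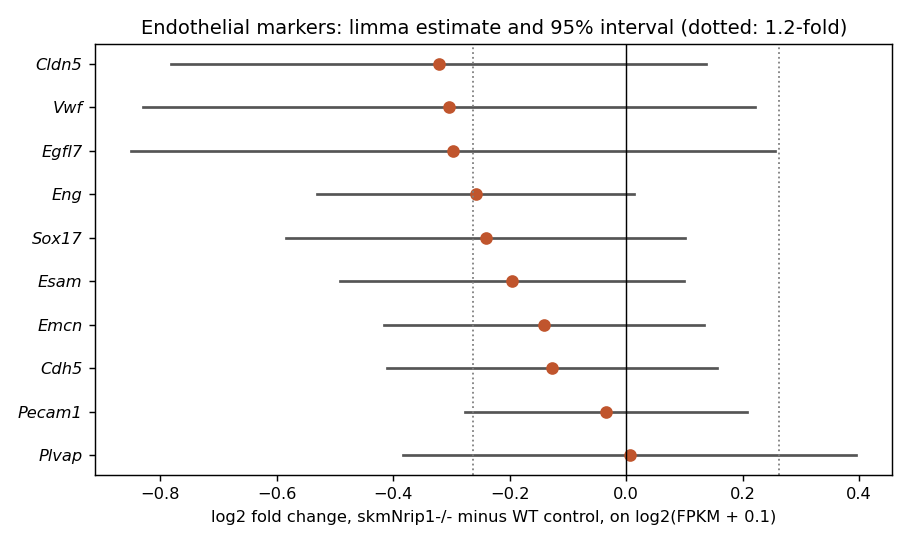
Log2 fold change (horizontal axis, libraries labelled skmNrip1-/- minus WT control) of each endothelial marker gene from limma, with its 95% interval as a line and a 1.2-fold change in either direction as dotted lines. All 10 intervals hold 0, and only that of Plvap reaches beyond the upper dotted line.

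The intervals say what size of difference these 5 libraries leave room for. The 95% interval of each gene held 0, and for 9 of 10 its upper end was under a 1.2-fold rise. Plvap was the exception, at 1.32. The lower ends ran from 0.555 for Egfl7 to 0.826 for Pecam1. These intervals are per gene, not adjusted for the number of genes, and they depended on single libraries. The count of upper ends under 1.2 was 3 without replicate 1 and 5 without replicate 2 labelled skmNrip1-/-, and 6 without either WT control replicate 1 or WT control replicate 3.

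The scaling between libraries also moved them. The share of FPKM in the 13 mtDNA-encoded genes was 45.4% to 50.7% in WT control TA and 58.6% and 60.9% in the libraries labelled skmNrip1-/-, and any scaling by the total passes this difference on to every other gene. On the TPM scale the median log2 fold change of the 10 markers was -0.52, and that of all genes tested was -0.29. Relative to all genes the markers were at -0.23 there and at -0.22 on the deposited scale. On TPM 9 of the 10 were lower at an unadjusted p of 0.05 or less, as were 29.1% of all genes, and 87.1% of all genes were below 0 there. Plvap was below 0 too, and none of the 10 was called on TPM (lowest adjusted p = 0.0793, for Esam, from limma). Scaled to the sum of the genes not encoded by mtDNA, the median was -0.14, that of all genes 0.07, Pecam1 was above 0 at 0.04, and 5 of 10 upper ends were under 1.2.

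Promoter windows from RefSeq, each from 250 bases before to 50 after the annotated start on GRCm38.p6, are printed 5′ to 3′ for 3 of the genes. Eng and Emcn are shown because their groups did not overlap, and Cldn5 because its estimate was lowest. Capitals mark GGAA or its reverse complement TTCC.
Eng, chr2:32646345-32646644, plus strand: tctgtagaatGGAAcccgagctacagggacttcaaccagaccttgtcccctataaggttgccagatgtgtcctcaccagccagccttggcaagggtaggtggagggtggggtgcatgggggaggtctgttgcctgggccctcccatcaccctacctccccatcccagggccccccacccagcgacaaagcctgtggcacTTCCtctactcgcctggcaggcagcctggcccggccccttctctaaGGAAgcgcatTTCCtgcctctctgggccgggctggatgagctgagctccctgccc
Emcn, chr3:137340828-137341127, plus strand: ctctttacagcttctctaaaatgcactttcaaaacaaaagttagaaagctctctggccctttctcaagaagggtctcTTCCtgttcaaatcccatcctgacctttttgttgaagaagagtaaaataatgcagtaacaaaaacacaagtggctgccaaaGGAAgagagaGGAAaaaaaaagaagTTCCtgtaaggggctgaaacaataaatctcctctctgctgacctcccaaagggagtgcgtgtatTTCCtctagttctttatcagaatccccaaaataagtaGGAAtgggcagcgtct
Cldn5, chr16:18776597-18776896, plus strand: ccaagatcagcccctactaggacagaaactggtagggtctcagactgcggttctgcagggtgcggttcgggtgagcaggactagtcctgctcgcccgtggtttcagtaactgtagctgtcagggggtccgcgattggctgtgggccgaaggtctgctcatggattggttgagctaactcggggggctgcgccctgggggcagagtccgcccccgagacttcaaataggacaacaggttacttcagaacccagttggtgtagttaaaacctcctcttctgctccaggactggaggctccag

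The Eng window held 4 matches to the ETS core, the Emcn window 6 and the Cldn5 window 0. A match is common, since 96.0% of the 32851 promoter windows of the same length held at least 1 and the median was 3. The SOX core AACAAT, searched on both strands, was found 1 time in Emcn and not in Eng or Cldn5, against 10.7% of all windows with a match. GC content was 63.3% for Eng, 58.3% for Cldn5 and 41.0% for Emcn. The promoter table also held Egfl7, with 3 start sites, so 4 of the 10 genes matched, without Pecam1, Cdh5, Esam, Vwf, Plvap and Sox17. A match is a description of letters and not a bound site.

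The markers did not move as 1 block from library to library. WT control replicate 1 was the highest library for 5 genes (Egfl7, Sox17, Cldn5, Plvap and Esam), WT control replicate 2 for 4 (Pecam1, Cdh5, Emcn and Eng), and WT control replicate 3 for Vwf. The lowest library was replicate 1 labelled skmNrip1-/- for 6 genes, replicate 2 labelled skmNrip1-/- for 2, and WT control replicate 2 for Plvap and Vwf. No marker was highest in a library labelled skmNrip1-/-, while 8 of 33 other pan-endothelial genes were highest in replicate 2 labelled skmNrip1-/-. The shares of all genes for these counts were not computed, so the counts are descriptions.

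**Figure D3:**
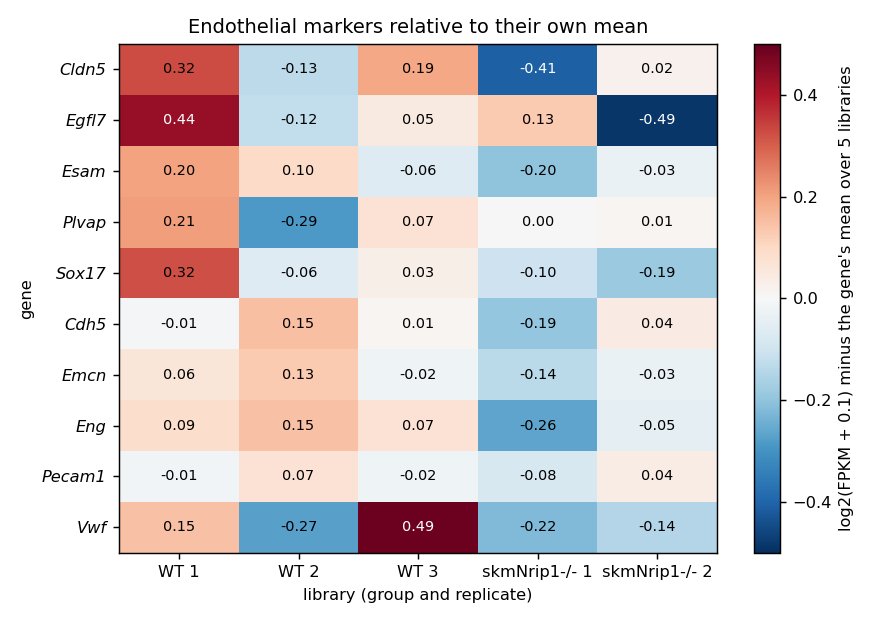
Each endothelial marker gene (rows) in each library (columns) as log2(FPKM + 0.1) minus the gene's own mean over the 5 libraries, red above and blue below that mean. Rows are ordered by their highest library, from WT control replicate 1 at the top (Cldn5 to Sox17) through WT control replicate 2 (Cdh5 to Pecam1) to WT control replicate 3 (Vwf).

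Relative to Pecam1, Cdh5 kept nearly the same level, at a ratio of 0.946, 0.995 and 0.965 in WT control TA and 0.873 and 0.945 in the libraries labelled skmNrip1-/-. Emcn kept a ratio of 0.229 to 0.254. The ratio of Eng to Pecam1 was 0.489, 0.48 and 0.487 in WT control TA and 0.40 and 0.43 in the libraries labelled skmNrip1-/-. The ratio of Egfl7 to Pecam1 ranged from 1.08 to 2.13 over the 5 libraries, and its highest and lowest values lay in different groups. Between WT control replicates alone it was 2.13, 1.36 and 1.63, so much of its spread lay within 1 genotype.

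The difference between WT control replicates 1 and 2 can be set beside the length and GC content of the transcripts. The ratio of replicate 1 to replicate 2 was 1.48 for Egfl7, 1.41 for Plvap, 1.38 for Cldn5, 1.34 for Vwf and 1.31 for Sox17, with a GC content of 52.6% to 60.6% in their longest coding transcripts. For Cdh5, Pecam1, Emcn, Eng and Esam the ratio was 0.894 to 1.08 and the GC content 41.5% to 57.4%. Egfl7, Cldn5 and Plvap also have short transcripts, of 1391, 1416 and 1987 nucleotides, while Vwf has 8834. The median GC content of the genes tested was 50.2%. Over 12138 of them, the log2 ratio of WT control replicate 1 to replicate 2 had a Spearman correlation of 0.25 with GC content and -0.42 with transcript length, across genes, which share these libraries and are not independent.

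**Figure D4:**
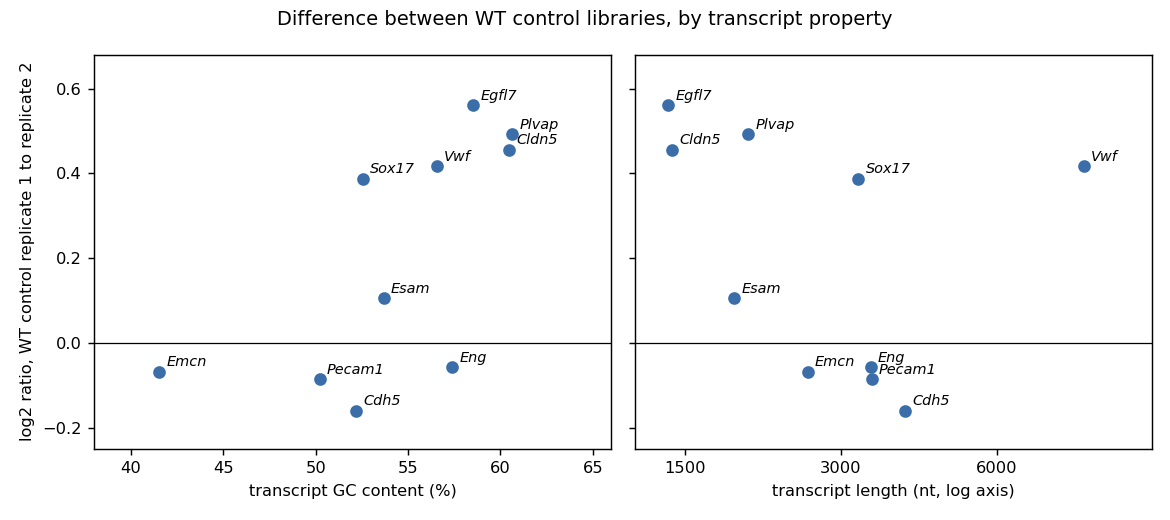
Log2 ratio of WT control replicate 1 to WT control replicate 2 (vertical axes) of the 10 endothelial marker genes, against the GC content (left) and the length on a log axis (right) of the longest coding transcript. The 5 genes with a ratio of at least 1.31 all have a GC content of at least 52.6%, and Esam, at 53.7%, and Eng, at 57.4%, are not among them.

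GC content moved with differences between single libraries and between the groups. Across the same genes, the log2 fold change of the libraries labelled skmNrip1-/- against WT control had a Spearman correlation of -0.31 with GC content, and 8 of the 10 markers lie above the median GC content, 6 by more than 3 percentage points. Some pairs of libraries within a group differed as much. In WT control TA the log2 ratios of replicates 1 to 2, 1 to 3 and 2 to 3 had correlations of 0.25, 0.0085 and -0.32 with GC content. The ratio of replicate 1 to replicate 2 labelled skmNrip1-/- had one of 0.12. Ratios of a WT control library to one labelled skmNrip1-/- had correlations from 0.002 to 0.34. After a lowess adjustment of each library on GC content, which was chosen after seeing the data, the median of the 10 markers was -0.16, 9 were below 0 and none was called. Emcn, the marker with the lowest GC content, then had a log2 fold change of -0.24 and Plvap, the one with the highest, 0.17.

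Many other genes lay closer to the markers' median profile over the libraries than the markers themselves. The 5 tested genes closest to their median profile, by root mean square difference in centred log2 values over the 5 libraries, were Rab3a, Gm2a, Ptpn23, Zswim1 and Satb1, at 0.020 to 0.028. Of the 12014 genes compared, between 217 and 8697 were closer to that profile than a marker itself, the fewest for Esam and the most for Egfl7.

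Other genes that endothelial cells use were compared in the same way. Of 34 further pan-endothelial genes, 33 were tested and none was called. Their median log2 fold change was -0.11, with 22 below 0 and 11 above, against 50.1% of all genes tested below 0. For 8, both libraries labelled skmNrip1-/- were below every WT control library, against 14.4% of all genes tested. The ETS factor gene Erg had a log2 fold change of 0.01 (6.75, 7.005 and 7.22 FPKM in WT control TA, 6.88 and 7.23 in the libraries labelled skmNrip1-/-). Nos3, the endothelial nitric oxide synthase, was at -0.19, with 4.19, 4.07 and 3.42 against 3.46 and 3.29 FPKM. The VEGF receptor genes Kdr and Flt1 were at 0.07 and -0.16, and the angiopoietin receptor gene Tek and its relative Tie1 at 0.05 and -0.12, none with an unadjusted p of 0.05 or less.

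Esm1, which encodes endocan and marks the tips of growing vessels, had the largest estimate of that list. It was 0.397, 0.403 and 0.317 FPKM in WT control TA, against 0.67 and 0.89 FPKM in TA labelled skmNrip1-/-. Both were above every WT control library, as for 15.8% of all genes tested, at a low level near the limit of the test. The group means were 0.373 FPKM in WT control TA and 0.78 FPKM in TA labelled skmNrip1-/-. Esm1 thus passed the minimum of 0.5 FPKM only through the libraries where it was high. Its log2 difference was 0.89 ± 0.29 (SE), and with an adjusted p of 0.302 (limma) it was not called. At the other end, the hematopoietic and endothelial factor gene Lyl1 was at -0.58 (adjusted p = 0.459 from limma), from a level of 1.24 ± 0.265 FPKM (SD, n = 3) in WT control TA.

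Capillary genes were not called either. Of 14, 12 were below 0, and their median was -0.10. Gpihbp1, which anchors lipoprotein lipase to the capillary wall, was 65.9, 44.7 and 49.3 FPKM in WT control TA, against 49.9 and 42.5 FPKM in TA labelled skmNrip1-/-. The water channel gene Aqp1 was 232, 231 and 188 FPKM against 199 and 212 FPKM. Carbonic anhydrase 4 (Car4) had the lowest estimate, -0.59 (standard error 0.25, adjusted p = 0.435 from limma), and its highest WT control value, 14.6 FPKM, was in replicate 1, where 11 of the 14 capillary genes were highest.

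Cd36 stood apart in that list. This fatty acid transporter gene is used by capillary endothelium and also by muscle fibers and fat cells. It was 90.1, 149 and 101 FPKM in WT control TA, against 179 and 185 FPKM in TA labelled skmNrip1-/-, above every WT control library. In limma it had a log2 difference of 0.71 ± 0.21 (SE) and an adjusted p of 0.279. Without WT control replicate 2 it was 0.93 and was called (adjusted p = 0.0499 from limma), the only call among all lists under any of the 17 alternatives to these settings.

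Markers of vessel types split without a call. Of 9 arterial genes tested, 6 were below 0 (median -0.13), from Sema3g at -0.25 to Stmn2 at 0.24. Of 5 venous genes, 3 were below 0 (median -0.17), from Ackr1 at -0.42 to Vcam1 at 0.39. Nr2f2, the transcription factor gene of venous identity, which was picked after its values were seen, was 6.14, 5.07 and 5.22 FPKM in WT control TA, against 7.59 and 6.69 FPKM in TA labelled skmNrip1-/- (log2 fold change 0.38, unadjusted p = 0.0289, adjusted p = 0.351 from limma). Of 4 lymphatic genes tested, Ccl21a was lowest at -0.42 (unadjusted p = 0.0342, adjusted p = 0.372 from limma), Pdpn was highest at 0.02, and the lymphatic regulator gene Prox1 was at most 0.303 FPKM in any library.

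Mural cells are the pericytes and smooth muscle that wrap the endothelial tube. All 11 of their genes overlapped between the groups, as did 8480 of the 12148 genes tested. The median of the mural genes was -0.06, from Notch3 at -0.31 to Rgs5 at 0.07. Their summed level was 195 to 216 FPKM in WT control TA and 195 and 206 FPKM in the libraries labelled skmNrip1-/-. The summed level of the 10 endothelial markers was 181, 157 and 162 FPKM in WT control TA, against 148 and 145 FPKM in TA labelled skmNrip1-/-, below every WT control library. Egfl7 alone gives 28.1 to 53.4 FPKM of each sum.

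Blood left in the vessels adds its own RNA to the muscle. The 5 erythroid genes tested were all above 0, with a median of 0.51. For 4 of them both libraries labelled skmNrip1-/- were above every WT control library, against 15.8% of all genes tested. The list's summed level was 764, 661 and 511 FPKM in WT control TA, against 996 and 827 FPKM in TA labelled skmNrip1-/-. The α-globin gene Hba-a2 was 301, 253 and 208 FPKM in WT control TA, against 394 and 330 FPKM in TA labelled skmNrip1-/- (log2 fold change 0.52, unadjusted p = 0.0235, adjusted p = 0.329 from limma), the largest estimate was 0.55 for Hbb-bt and the smallest 0.37 for Alas2. None was called, and globin genes of near-identical sequence share fragments. The part of residual blood in the endothelial values was not tested. Platelet genes bear on Vwf and Esam, and the range of Pf4 overlapped that of Vwf, 4.48 to 7.64 FPKM. The platelet part of the Vwf and Esam values was not tested. Pf4 was at -0.40, with values from 1.64 to 5.37 FPKM, and Gp1ba at -0.08.

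Other cells of the muscle varied between libraries within each group. Macrophage genes summed to 24.3, 33.9 and 47.4 FPKM in WT control TA, against 39.1 and 28.7 FPKM in TA labelled skmNrip1-/-. All 8 tested, from C1qa at -0.33 to Mrc1 at 0.39, overlapped between the groups, as did 8480 of the 12148 genes tested. Fibroblast genes summed to 216 to 323 FPKM in WT control TA and to 253 and 374 FPKM in the libraries labelled skmNrip1-/-, from Mfap5 at -0.31 to Col1a2 at 0.26. Tendon genes were highest in replicate 2 labelled skmNrip1-/-, at a sum of 122 FPKM against 43.3 to 62.8 FPKM in the other libraries. Tnmd was at 0.72, and the tendon factor gene Scx at -1.18 (adjusted p = 0.167 from limma).

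Fat, nerve and stem cell markers were also not called. Adipocyte genes summed to 8.18 to 14.9 FPKM, from Plin1 at -0.36 to Cfd at 0.15. Plin1 passed the minimum of 0.5 FPKM only through WT control TA. Its mean was 0.678 FPKM there and 0.483 FPKM in TA labelled skmNrip1-/-. All 5 Schwann cell genes tested were below 0, with a median of -0.20 and Mbp, a myelin protein gene, at -0.05. Satellite cell genes ranged from Cdh15 at -0.56 (unadjusted p = 0.00791, adjusted p = 0.241 from limma) to Chodl at 0.19. No lymphocyte gene reached the minimum level. The muscle fiber genes themselves, with 7 of 8 below 0, had a median of -0.19, near that of the endothelial markers. Acta1 was at -0.40 and Myh1 at 0.05, and the list's summed level was 76617 to 104794 FPKM in WT control TA and 74673 and 71567 FPKM in the libraries labelled skmNrip1-/-. The part of these cell types in the endothelial values was not tested.

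**Figure D5:**
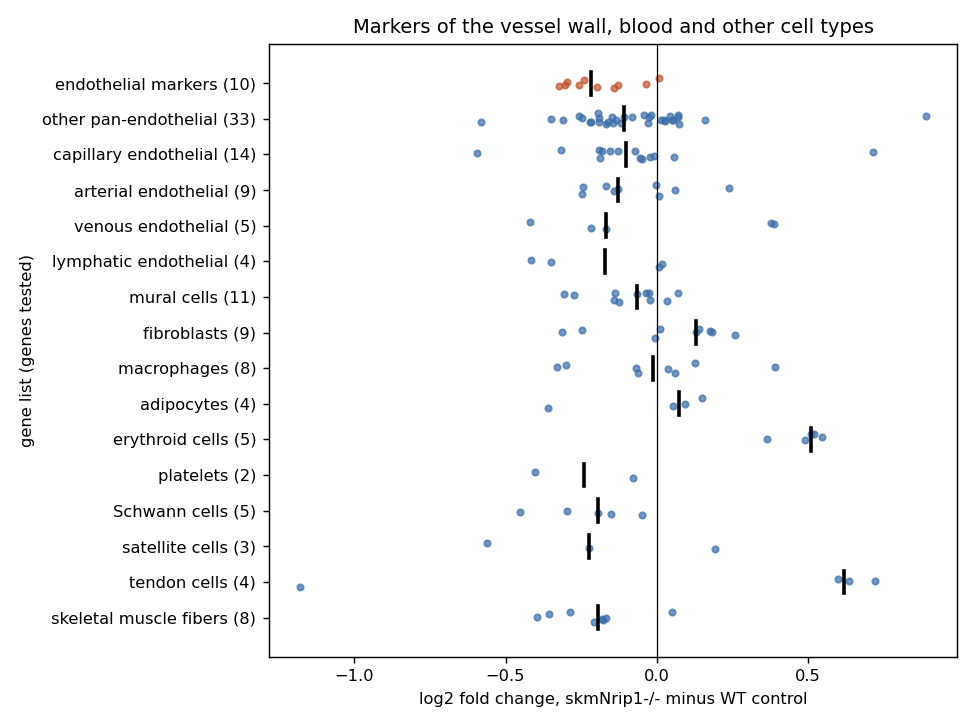
Log2 fold change (horizontal axis, libraries labelled skmNrip1-/- minus WT control) of each tested gene in 16 marker lists, with the number of genes tested in brackets and the list's median as a black line. The endothelial markers (red) lie between -0.32 and 0.01, the erythroid genes between 0.37 and 0.55.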

How the data were processed

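TA muscle RNA was sequenced in 3 WT control libraries and 2 labelled skmNrip1-/-, made with the NEBNext Ultra kit. The study's legend for this tissue gives 3 mice per group, while the data used here hold 2 libraries labelled skmNrip1-/-. The authors quantified reads with Salmon 1.10.2 on the mm10 reference, summarized transcripts to genes with tximport, and deposited FPKM per gene and library. How these FPKM were computed is not given in the sources used here. Scaling each library by its median ratio to the genes' geometric means left the marker median at -0.22 and the all-gene median at -0.00054. The deposited values were thus already close to that scale, on which an all-gene median near 0 largely follows from the scaling. The deposited log2 fold changes and adjusted p-values of the authors' DESeq2 1.44.0 comparison were not used. Depth is unknown, and no counting interval is given.

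Libraries were grouped by their titles, and columns were matched by genotype and number. The test was limma 3.58.1 (R 4.3.3, eBayes with a trend) on log2(FPKM + 0.1) for genes whose mean reached 0.5 FPKM, two-sided, with Benjamini-Hochberg adjustment over 12148 genes. The added 0.1 shrinks fold changes of low genes. For 1 gene, 3 libraries against 2 allow 10 splits, so an exact permutation test cannot go below 0.1 one-sided. The labels do not say that the libraries come from separate litters, and p-values measure the spread between these libraries. The fit was tested on simulated data with independent errors for each gene, which held no shifts shared by the genes of a library.

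The 17 lists hold 158 genes, of which 2 are missing from the table and 134 were tested. The markers and lists were chosen with earlier results of these data known, so counts within lists are descriptions. Named genes are the markers, Nrip1, the highest and lowest estimate of each list, 6 pan-endothelial genes listed by name (Kdr, Tie1, Tek, Flt1, Erg and Nos3) and the 5 nearest profiles; Gpihbp1, Aqp1, Nr2f2, Prox1 and Hba-a2 were added after their values were seen. The lowest estimate of the Schwann cell list is not reported here. Positions, transcript lengths and GC content come from GENCODE M21 (GRCm38, the same assembly as mm10), which holds 17008 of the 17015 gene IDs and all 10 markers. Promoters come from RefSeq. Alternatives were other pseudocounts, minimum levels, scalings and eBayes options, the replicate number as a block, leaving out each library and, added after seeing the data, lowess adjustment (span 0.3) for GC content or transcript length. Annotation was joined with pandas 2.3.3 and numpy 2.4.6 under Python 3.11.15, and plots were drawn in matplotlib 3.10.9.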

Additional observations from a re-analysis of the deposited data

How the results depend on the processing

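No endothelial marker was called under any of the 17 alternatives, and of their 170 values 6 changed sign. Pecam1 was at 0.041 when scaled without mtDNA genes, and at -0.093 to 0.024 with 1 library left out, above 0 without replicate 1 labelled skmNrip1-/-. Egfl7 was at -0.61 to 0.011 with 1 library left out, above 0 without replicate 2 labelled skmNrip1-/-. Plvap was at -0.29 on TPM, at -0.14 to 0.11 with 1 library left out, at -0.14 without WT control replicate 2 and at -0.000913 without replicate 2 labelled skmNrip1-/-. The median of the markers was -0.52 on TPM and -0.22 to -0.11 when 1 library was left out, the latter without replicate 1 labelled skmNrip1-/-. Over all genes, 45 were called higher and 10 lower. These counts were 29 and 59 on TPM, 22 and 3 with eBayes without a trend, 14 and 3 with a threshold of 0.01, and 6 to 51 and 2 to 15 with 1 library left out. The fewest higher calls came without replicate 2 labelled skmNrip1-/-, then without its replicate 1 (8), WT control replicate 3 (17) and WT control replicate 1 (24). Lower calls were 2 without WT control replicate 3 and 3 without either WT control replicate 1 or replicate 2 labelled skmNrip1-/-. The cause was not tested. The other endothelial lists had 0 to 1 calls higher with 1 library left out (Cd36).

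The groups share replicate numbers 1 and 2, which the labels tie to no litter or batch. Deviations from the group means correlated at 0.065 and 0.095 across genes for the same-numbered pairs. With 2 libraries labelled skmNrip1-/-, the crossed pairs have the same values with the opposite sign by construction, so these values cannot decide on pairing. The numbers were not taken as pairs because no label ties them. With the replicate number as a block, 18 genes were called higher and 4 lower, the median of the markers was -0.22, and none was called. Absolute depth is unknown, which leaves counting error at the lowest levels, such as that of Esm1, without a bound.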
